A study of Mus musculus with 2 samples.

Results

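The genes described here are 10 components of Notch signalling, comprising 4 receptor genes (Notch1, Notch2, Notch3 and Notch4), 2 ligand genes (Jag1 and Dll1) and 4 genes known as transcriptional targets (Hes1, Hey1, Heyl and Nrarp). They were taken by name: every probe set whose only annotated gene symbol is one of these names was used, which gave 20 of the 45037 probe sets other than controls and 10 of the 18193 named genes on the array. Cells came from the superficial zone, the surface layer of articular cartilage, dissected from femur and tibia of 4-day-old mice of the ICR strain. They were grown in DMEM with 10% serum and kept for 24 h with 10 μM retinoic acid, the active metabolite of vitamin A (n = 1), or without it as the control (n = 1). No genotype other than the ICR strain is given, and the labels do not say how many animals were pooled or whether both cultures came from the same preparation. RNA of each culture was read on 1 Affymetrix Mouse Genome 430 2.0 array.

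Notch receptors are single-pass membrane proteins that are activated by ligands of the Jagged and Delta-like families on a neighbouring cell. Ligand binding exposes the receptor to cleavage by an ADAM protease and then by the γ-secretase complex, and the released intracellular domain enters the nucleus, where it joins the DNA-binding protein RBPJ and a Mastermind coactivator to switch on targets such as the HES and HEY repressor genes. In developing joints of mice, Notch1 has been described in the cells at the articular surface, and the pathway is known to hold back chondrocyte differentiation.

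There were no replicates, so no p-value is given, and every ratio below compares 2 arrays only. The signal is the MAS5 value of a probe set on a linear scale. Low MAS5 signals carry little information, and a floor was therefore set at each array's median signal, 29.7 on the retinoic acid array and 26.5 on the control array. Genes exceeding both floors (the 2-array set) were given a fold, those exceeding only 1 a bound, and those exceeding neither count as not measured. Of the 1162 genes exceeding only 1 floor, 151 got no bound, because their signal on that array lay below the floor of the other. The only repeat measurement was the agreement of different probe sets of the same gene, whose log2 ratios had a pooled SD of 0.30 (4993 genes). This SD holds no variation between cultures. It measures the spread of single probe sets around the mean of their gene, and a difference between 2 probe sets spreads wider. As a check of the treatment, 6 known retinoid response genes were read, and all were more than 2-fold higher with retinoic acid, with log2 ratios of 1.91 to 6.84. All 8 chondrocyte markers exceeded both floors and had log2 ratios of −5.01 to −0.35. Of 5 superficial zone markers 4 were measured, with 3 lower and 1 higher with retinoic acid. Prg4, the lubricin gene, read 1148 with retinoic acid and 1920 in control, and Erg and Thbs4 had log2 ratios of −0.46 and −0.89. Clu, the clusterin gene, was the higher one and read 6138 with retinoic acid and 1027 in control. The 5 summed to 7964 with retinoic acid and 4134 in control, and most of the retinoic acid sum came from Clu.

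Of the 10 Notch genes, the retinoic acid culture had Hes1 and Notch2 past 2-fold on the higher side and 0 on the lower side. Among the 11884 measured genes, the background was 6.54% past 2-fold on the higher side and 4.34% on the lower side. Jag1 was higher and Notch1 was lower by somewhat less than 2-fold, and Dll1 had only a bound, of at least 1.90-fold higher. Notch3 and Heyl had folds close to 1, and Notch4, Hey1 and Nrarp were not above the floor on either array. The receptors thus went both ways. Of the targets with a fold, Hes1 was higher, and Heyl, close to 1, had a retinoic acid signal barely above its floor. Because a bulk array reads total RNA, fewer cells that express a gene and less RNA per cell cannot be told apart.

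**Figure D1:**
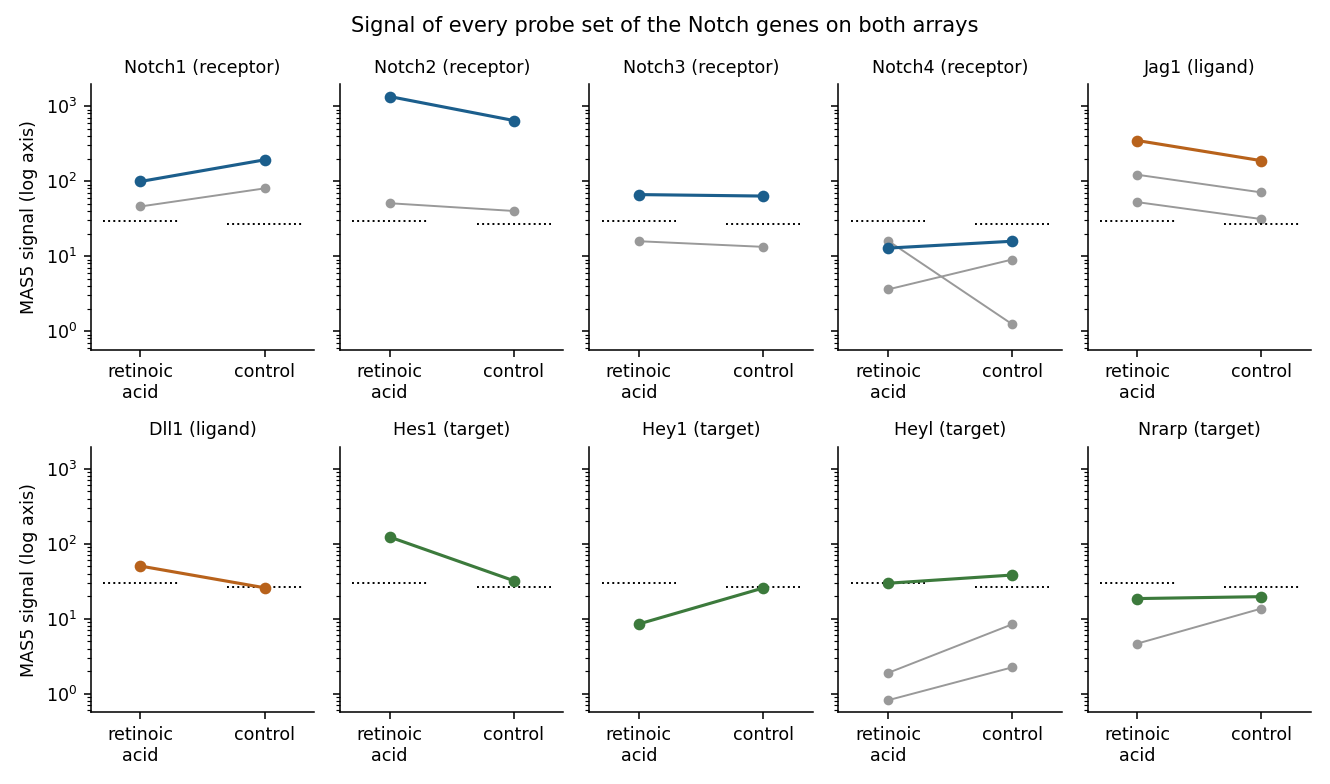
MAS5 signal (log axis) of all 20 probe sets of the Notch genes on the retinoic acid array and the control array; coloured lines are the brightest probe set of each gene (blue for receptors, orange for ligands, green for targets), grey lines the others, and dotted segments the floor of each array. Hes1, Notch2, Jag1 and Dll1 slope down towards control, Notch1 slopes up, and every probe set of Notch4, Hey1 and Nrarp lies below both floors.

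Promoter windows are shown for the receptors that differed in opposite directions, Notch2 and Notch1, and for the ligands, Jag1 and Dll1, as the stretch around which transcription of these members starts. Each runs from 250 bases before to 50 bases after a RefSeq transcription start on build GRCm38.p6, 5′ to 3′ on the strand of the gene, and capitals mark matches, on either strand, to any of the motifs searched. The windows are chr3:98013288-98013587 on the plus strand for Notch2, chr2:26503773-26504072 on the minus strand for Notch1, chr2:137116471-137116770 on the minus strand for Jag1 and chr17:15375774-15376073 on the minus strand for Dll1.
Notch2: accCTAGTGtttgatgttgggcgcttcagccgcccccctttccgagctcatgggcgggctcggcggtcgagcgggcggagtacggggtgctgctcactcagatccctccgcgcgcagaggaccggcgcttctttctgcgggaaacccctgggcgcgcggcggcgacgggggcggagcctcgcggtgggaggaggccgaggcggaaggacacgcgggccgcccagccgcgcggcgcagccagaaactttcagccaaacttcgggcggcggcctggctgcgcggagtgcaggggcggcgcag
Notch1: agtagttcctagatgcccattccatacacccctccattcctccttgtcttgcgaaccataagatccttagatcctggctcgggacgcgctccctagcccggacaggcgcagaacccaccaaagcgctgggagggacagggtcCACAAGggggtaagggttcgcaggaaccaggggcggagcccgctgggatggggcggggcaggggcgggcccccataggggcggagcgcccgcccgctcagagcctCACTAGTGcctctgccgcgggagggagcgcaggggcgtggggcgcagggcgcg
Jag1: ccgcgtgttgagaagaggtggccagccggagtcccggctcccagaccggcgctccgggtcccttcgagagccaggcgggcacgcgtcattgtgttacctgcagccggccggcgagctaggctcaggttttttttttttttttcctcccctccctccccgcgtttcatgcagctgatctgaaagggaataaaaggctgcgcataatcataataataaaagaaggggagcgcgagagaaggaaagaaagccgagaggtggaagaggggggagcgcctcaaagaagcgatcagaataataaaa
Dll1: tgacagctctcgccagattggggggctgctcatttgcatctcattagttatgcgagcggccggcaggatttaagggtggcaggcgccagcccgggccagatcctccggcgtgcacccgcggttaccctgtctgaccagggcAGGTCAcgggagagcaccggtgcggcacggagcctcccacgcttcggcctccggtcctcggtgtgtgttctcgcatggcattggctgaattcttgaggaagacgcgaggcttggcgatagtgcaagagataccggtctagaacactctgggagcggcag

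The motifs were GTGGGAA, the core bound by RBPJ, CACNAG, the N-box bound by HES proteins, CACGTG, an E-box, and AGGTCA and AGTTCA, half-sites of retinoid receptors. Of the 10 members 7 had at least 1 window in the RefSeq table, 8 windows in all, and none is shown for Hes1, Hey1 and Heyl. GTGGGAA was in 0 of the 8 windows, against 6.38% of all 32851 promoter windows of the table. CACNAG was in 5 of the 8, against 42.5% of all windows. In Notch2 its first base lies 247 bases before the start, in Notch1 it occurs 3 times, of which 2 matches on opposite strands overlap at the start, and in Jag1 no searched motif occurs. AGGTCA was found in the Dll1 window shown, 109 bases before the start, and in no other window of the members, against 16.3% of all windows. Dll1 has 2 windows, for 2 start sites. The one not shown has no AGGTCA, and its only match is CACNAG, with the first base at position 14 counted from the start. CACGTG (7.15% of all windows) and AGTTCA (14.0%) were each in 1 of the 8, both in the window of Nrarp. These matches describe the letters of a short window and say nothing about binding.

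Among the receptors, Notch2 had the signal furthest above the floor. Its brightest probe set read 1347 with retinoic acid and 645 in control, 45.3 times and 24.3 times the floor of its array, a 2.09-fold higher signal (log2 ratio 1.06). A second, dimmer Notch2 probe set read 50.8 with retinoic acid and 40.0 in control, with a log2 ratio of 0.34. Both probe sets were higher with retinoic acid, but their ratios lie 2.39 times the pooled SD between probe sets apart, and taking the median of both probe sets gave Notch2 a log2 ratio of 0.70, below 2-fold. Notch2 falls in the brightest of 4 equal groups of genes by signal, of which 5.22% were past 2-fold higher. In the 2-array set of 10722 genes, 577 had a higher ratio than Notch2.

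Notch1 was lower with retinoic acid. Its brightest probe set read 99.0 with retinoic acid and 193 in control, a 1.95-fold lower signal (log2 ratio −0.96). The second Notch1 probe set read 46.0 with retinoic acid and 80.1 in control, a 1.74-fold lower signal (log2 ratio −0.80). The probe sets thus differed by less than the pooled SD. In the 2-array set, 470 genes had a lower ratio than Notch1. Notch2 at 2.09-fold higher is the member just past 2-fold, and Notch1 at 1.95-fold lower the one just short of it, and small shifts in scaling move both across: with quantile normalization Notch1 was counted as at least 2-fold lower and Notch2 was no longer counted.

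Notch3, the receptor known best from vascular smooth muscle and pericytes, had signals of 66.2 with retinoic acid and 63.3 in control (log2 ratio 0.065). Its sign turned with quantile normalization (−0.055) and with loess (−0.017), so that no direction can be given for it. A second Notch3 probe set, at 15.8 and 13.3 on the retinoic acid and control arrays, was below both floors. The brighter one is not marked as unique to a transcript, and with only unique probe sets Notch3 was not measured. Notch4, the receptor known mainly from endothelium, has 3 probe sets, and they read 3.60 to 16.1 with retinoic acid and 1.23 to 15.8 in control. All 6 of these values are below the floor, so no fold is given.

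Because Notch4 is known from endothelium and Notch3 from mural cells, the markers of these cells were read beside them. Of 8 endothelial markers, 0 were in the 2-array set, and their summed signal was 111 with retinoic acid and 107 in control, with Pecam1 and Vwf below 3 on both. Kdr exceeded only the retinoic acid floor, at 36.6 with retinoic acid and 25.4 in control. Esam exceeded only the control floor, at 18.4 with retinoic acid and 28.7 in control. Of 8 mural markers, 5 were in the 2-array set, with a summed signal of 8185 with retinoic acid and 6197 in control. Most of that sum came from Acta2 and Pdgfrb, which fibroblasts also express, and the other 6 summed to 290 with retinoic acid and 980 in control. Most of the control sum of those 6 came from Cspg4 alone, which read 84.9 with retinoic acid and 789 in control. Among those 6 Rgs5 was 2.93-fold higher with retinoic acid, Cspg4 and Des were at least 2-fold lower, and Mcam, Abcc9 and Kcnj8 were below both floors. Of 8 leukocyte markers, 4 were in the 2-array set, and all 8 summed to 298 with retinoic acid and 237 in control. The part of these cells in the Notch gene signals was not tested.

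Of the ligands, Jag1 was higher with retinoic acid, and Dll1 had only a bound. The brightest probe set of Jag1, a ligand of the Jagged family, read 349 with retinoic acid and 188 in control, a 1.86-fold higher signal (log2 ratio 0.89). The second read 122 with retinoic acid and 70.8 in control, with a log2 ratio of 0.78. The third read 52.5 with retinoic acid and 31.2 in control, with a log2 ratio of 0.75. Jag1 is the member with the most probe sets exceeding both floors, and its 3 ratios lie within 0.14 of each other, less than the pooled SD.

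Dll1, a ligand of the Delta-like family, has 1 probe set, which read 50.5 with retinoic acid and 25.9 in control. The control signal was at 0.977 times its floor, just below it, and Dll1 was therefore at least 1.90-fold higher (bound on the log2 ratio 0.93). Having passed only through the array on which it was the higher, it had to differ, and its bound supports no direction of the list.

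**Figure D2:**
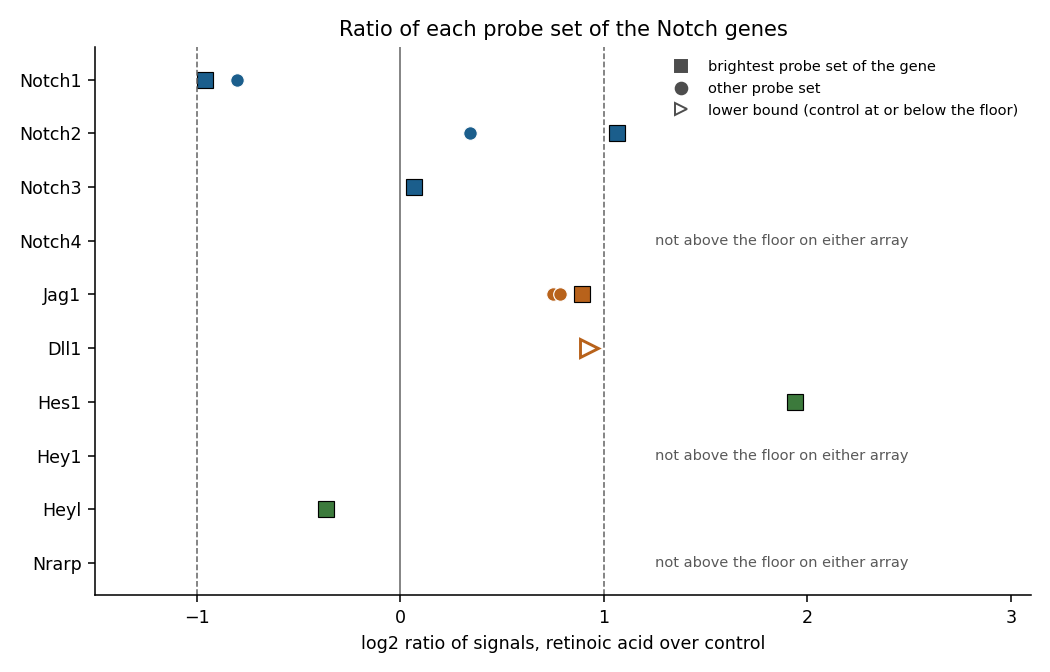
Log2 ratio of signals (retinoic acid over control) for each probe set of the Notch genes that exceeded both floors, with squares for the brightest probe set of a gene, circles for the others and an open triangle for the bound of Dll1; dashed lines mark 2-fold. The 3 Jag1 probe sets and the 2 Notch1 probe sets cluster, the 2 Notch2 probe sets lie apart, and Hes1 stands at 1.94 on 1 probe set.

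Of the targets, Hes1 had the highest ratio among the 7 measured members. Hes1 encodes a basic helix-loop-helix repressor that is a direct target of the RBPJ complex and also responds to other signals. It read 123 with retinoic acid and 32.2 in control, a 3.83-fold higher signal (log2 ratio 1.94). The array has 1 Hes1 probe set, so no second probe set checks it, and its control signal was 1.21 times the floor, against 4.15 times with retinoic acid. Adding each array's median signal as an offset, which damps ratios of dim genes, gave a log2 ratio of 1.38, still past 2-fold. With the floor raised to percentile 70, Hes1 was not measured. In the 2-array set, 174 of 10722 genes had a higher ratio, and in the dimmest of the 4 signal groups, to which Hes1 belongs, 6.83% were past 2-fold higher.

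Of the other targets only Heyl had a fold. Heyl, a repressor gene of the HEY family, read 29.8 with retinoic acid and 38.3 in control (log2 ratio −0.36), with the retinoic acid signal only 1.002 times its floor. The other 2 Heyl probe sets read 0.818 and 1.89 with retinoic acid, against 2.25 and 8.43 in control, all below the floors. Hey1, the founding member of that family, read 8.51 with retinoic acid and 25.7 in control on its only probe set. The control value is 0.968 times the floor, so Hey1 has no fold here, and with the floor lowered to percentile 30 it was counted as at least 2-fold lower (bound on the log2 ratio −1.27). Nrarp, which encodes a feedback inhibitor of the Notch complex, read 18.6 and 4.66 with retinoic acid, against 19.7 and 13.7 in control, on 2 probe sets below both floors.

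**Figure D3:**
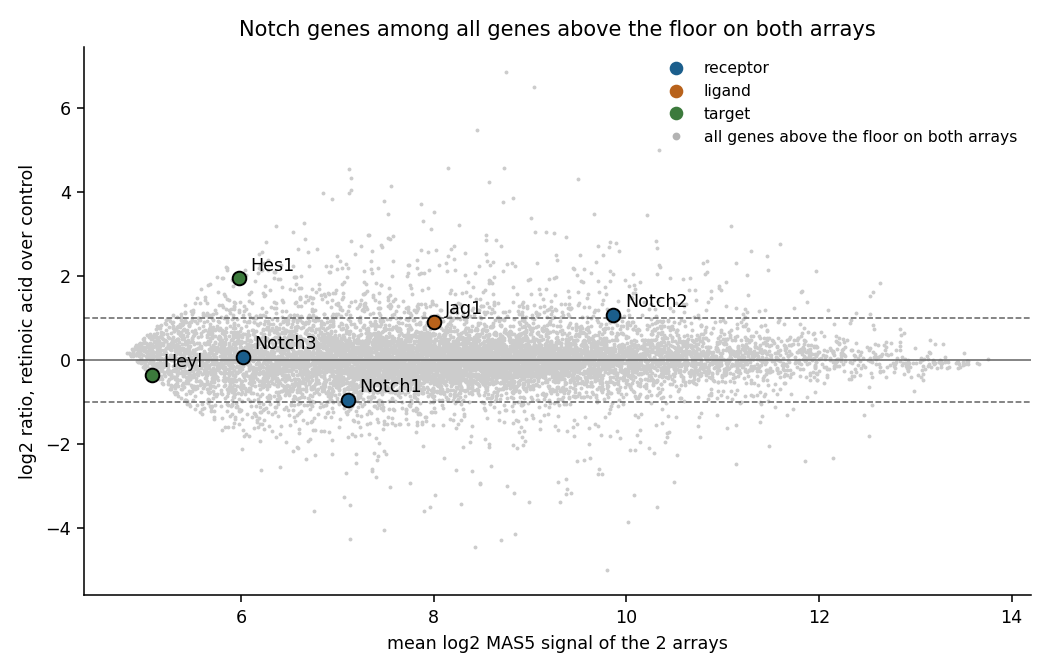
Log2 ratio (retinoic acid over control) against the mean log2 signal of both arrays for the 10722 genes exceeding both floors (grey), with the 6 Notch genes among them coloured by role; dashed lines mark 2-fold. Hes1 lies near the dim end above the upper line, Notch2 on the bright side just above it, and Notch1 just inside the lower line.

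Over the 7 measured members the median log2 ratio was 0.89, and over the 6 in the 2-array set it was 0.48, against 0.014 for all genes of that set. The median rests on which members are counted, since with no floor all 10 enter and it was −0.010. These are descriptions of a few genes chosen by name.

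The rest of the pathway was read in 69 further genes, of which 64 had a probe set of their own and 52 were measured. Of these 52, 4 were past 2-fold on the higher side (7.69%, beside the background of 6.54%) and 1 on the lower side (1.92%, beside 4.34%), shares near those of all genes. Their median log2 ratio was 0.22. The 4 higher genes were Dtx4, Hes6, Bhlhe40 and Adam10, and the lower gene was Dlk1. Adam10 was no longer counted with quantile normalization, and Dlk1 with the median signal added as an offset. Hes6 and Dlk1 were also not counted with only probe sets marked as unique to a transcript. That setting dropped both probe sets of Hes6 and the brightest of Dlk1.

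Among the other ligands and ligand-like proteins, Dlk1, a Delta-like protein without the domain that activates receptors, had signals of 426 with retinoic acid and 874 in control, a 2.05-fold lower signal. Mfap5, a microfibril protein, read 114 with retinoic acid and 224 in control (log2 ratio −0.98), whereas its relative Mfap2 read 447 with retinoic acid and 256 in control (log2 ratio 0.80). Jag2, the second Jagged ligand, read 43.5 with retinoic acid and 7.85 in control, below the control floor, and was at least 1.64-fold higher. Of the 7 measured genes of this list 3 are bounds, whose sign the floor fixes, and the 4 in the 2-array set split into 2 above 0 and 2 below (median log2 ratio −0.37). The second Mfap2 probe set exceeding both floors had a log2 ratio of 1.37, and Mfap2 was counted as past 2-fold higher with the median of its probe sets, and Mfap5 as past 2-fold lower under the 3 scalings.

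Of 5 genes for enzymes that glycosylate the receptor, 3 were measured, with log2 ratios of −0.0092 to 0.022 on their brightest probe sets. Pofut1, which adds O-fucose, read 443 with retinoic acid and 446 in control, Poglut1, which adds O-glucose, read 531 on both arrays, and Rfng, a fringe enzyme that extends the fucose, read 269 with retinoic acid and 265 in control. The other fringe genes were below both floors, Lfng at 3.46 with retinoic acid and 23.3 in control and Mfng at 3.15 with retinoic acid and 4.23 in control. With the floor lowered to percentile 30 and with no floor, Lfng was counted as past 2-fold lower. Dimmer probe sets of Pofut1 had log2 ratios of −0.54 and −0.12.

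Of 8 genes of receptor cleavage, all of them exceeding both floors, only Adam10 was past 2-fold. Adam10 encodes the protease that makes the ligand-dependent cut, and it read 2497 with retinoic acid and 1183 in control, a 2.11-fold higher signal (log2 ratio 1.08). Its other 2 probe sets above the floor had log2 ratios of 0.95 and 1.26. The γ-secretase subunit genes Ncstn, Aph1b and Psenen had log2 ratios of −0.52, 0.47 and 0.25. Aph1b has a near copy in the mouse, Aph1c, which shares a probe set with it, so its ratio is uncertain.

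Among 16 measured genes of trafficking and turnover, Dtx4 had the highest ratio, above that of every measured member. Dtx4 belongs to the Deltex family of ubiquitin ligases, which act on Notch receptors. It read 296 with retinoic acid and 64.7 in control, a 4.58-fold higher signal (log2 ratio 2.20), and its second probe set had a log2 ratio of 1.63. The family member Dtx2 had a log2 ratio of −0.69 and Fbxw7, the ubiquitin ligase subunit gene known for turnover of the intracellular domain, of −0.66. The second probe set above the floor had a log2 ratio of −0.54 for Dtx2 and of −0.19 for Fbxw7. Epn2, an endocytic adaptor gene, had a log2 ratio of 0.80 on its brightest probe set, but its other 3 above the floor spanned −0.37 to 1.96, so its ratio is uncertain.

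Of 16 measured genes of the nuclear complex, 0 were past 2-fold, while 12 had log2 ratios above 0 and 4 below (median 0.32), beside 5979 above 0 and 5754 below among all genes with a fold or bound (median 0.011). Rbpj, the DNA-binding partner of the pathway, read 1814 with retinoic acid and 1197 in control (log2 ratio 0.60), with other probe sets at 0.35 and 0.71. The Groucho-family genes Tle5, Tle1 and Tle3 had log2 ratios of 0.80, 0.73 and 0.60 on their brightest probe sets. Other probe sets above the floor were lower, at 0.35 for Tle1 and at 0.22 and 0.42 for Tle3. Tle5 has only 1 probe set.

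Most other HES and HEY genes were not measured. Of 8 on the array, which include the related Bhlhe40 and Bhlhe41, 6 were below both floors. Hes6, which encodes a HES protein known to oppose Hes1 in neural cells of mice, read 561 with retinoic acid and 230 in control, a 2.44-fold higher signal (log2 ratio 1.29), and its second probe set gave the same log2 ratio of 1.29. Bhlhe40, a repressor gene also known from the circadian clock and hypoxia, read 1052 with retinoic acid and 448 in control, a 2.35-fold higher signal (log2 ratio 1.23). Both are thus on the same side as Hes1.

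**Figure D4:**
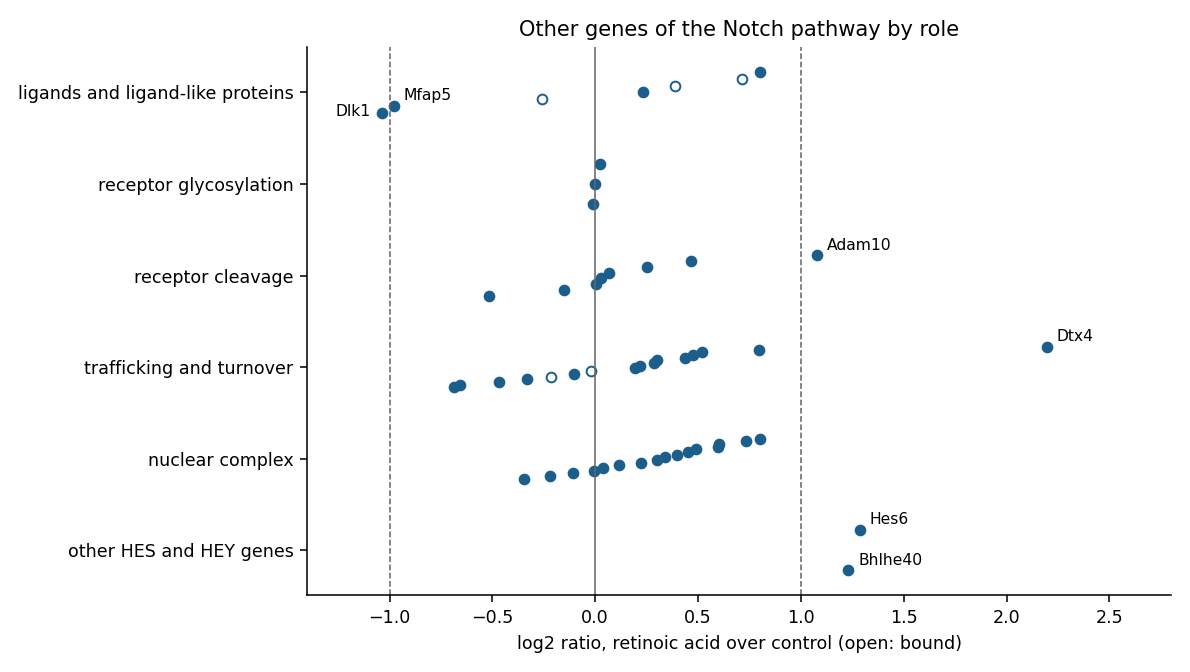
Log2 ratio (retinoic acid over control) of the 52 measured genes of the wider Notch pathway, 1 point per gene, grouped by role; open points are bounds, dashed lines mark 2-fold, and genes at or beyond 0.9 in size are named. Dtx4, Hes6, Bhlhe40 and Adam10 lie above 2-fold and Dlk1 below, while the other 47 lie between the lines.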

How the data were processed

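Cultures were grouped by the treatment in the labels, 1 per group. Biotinylated cRNA from 100 ng of RNA per culture was hybridised, per the labels' protocols. The deposited values are intensities, 1 linear MAS5 signal per probe set; MAS5 is named in the submitters' processing notes, but its version, scaling target and detection calls were not given in the sources used. MAS5 combines perfect-match and mismatch probes, so dim signals are noisy.

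Signals were used as deposited. Of 45101 probe sets, 64 controls, 932 with several symbols and 9160 with none did not enter the comparison. Each gene is shown by its brightest probe set (mean log2 signal). Ratios run retinoic acid over control; a bound sets the floor of the dim array against the bright signal. Of the measured genes 1162 were above the floor on only 1 array. The trimmed means were 193 with retinoic acid and 183 in control. The members and lists were chosen with earlier results of these data known. Named were all members and up to 4 genes per list with the largest absolute ratio. The ratio step was tested on simulated data, with changes larger than 2-fold set only in genes well above the floor. That test does not cover folds near 2 or signals near the floor. Alternatives changed the floor, scaling and choice of probe set. Promoter sequences are RefSeq's. Python 3.11.15, numpy 2.4.6, pandas 2.3.3, statsmodels 0.14.6 and matplotlib 3.10.9 were used.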

Additional observations from a re-analysis of the deposited data

How the results depend on the processing

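There were 9 alternatives planned and 2 chosen after seeing the data (a common floor, and genes exceeding both floors only). Under them, Hes1, Notch2 and Jag1 had log2 ratios above 0 and Notch1 and Heyl below 0 wherever they were measured. Hes1 ranged from 1.38 to 1.94, Notch2 from 0.70 to 1.06, Jag1 from 0.78 to 0.89 and Notch1 from −1.03 to −0.77. With the floor at the 70th percentile Notch1 had only a bound, of −0.59, because its retinoic acid signal lay below that floor. Dll1 is left out here, since its main value is a bound whose sign the floor fixes. Heyl was not measured with the median over probe sets, Notch3 with only probe sets marked as unique, and Dll1 with genes exceeding both floors only. With the floor at the 70th percentile only Notch1, Notch2 and Jag1 were measured. Members at least 2-fold higher numbered 1 with that floor (Notch2), with quantile normalization (Hes1) and with the median over probe sets (Hes1), against 2 otherwise. Members at least 2-fold lower numbered 1 with the floor at percentile 30 and with no floor (Hey1), and 1 with the median log2 ratio set to 0 and with quantile normalization (Notch1), against 0. The members' median was −0.010 with the floor at the 30th percentile and with no floor, and 0.48 with genes exceeding both floors only. Of the wider pathway, 8 genes were at least 2-fold higher with no floor, and those at least 2-fold lower numbered 3 with the floor at the 30th percentile, 5 with no floor, 2 with each of the 3 scalings, and 0 with the median signal added as an offset and with probe sets marked as unique. Lower floors measure more genes by construction. No paired analysis was possible because each group has 1 array. Signal near the floor limits Hes1, Dll1, Hey1 and Heyl most.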
